A study of Mus musculus with 7 samples.

Results

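Whole spleens of wild-type mice, sequenced as the control group of a study of Brca1 mutations in blood stem cells, were described on their own as a baseline for normal spleen. The 4 wild-type libraries were taken out of the 7 samples of the series by their labels, and no measured value entered that choice. Each came from the spleen of a Brca1+/+ mouse whose genotype is given as C57BL6, aged 2 to 3 months, kept on a normal diet in specific pathogen-free housing. No treatment, transgene or recombinase is named for this group. Total RNA was extracted from the tissue with Trizol and sequenced as paired ends, so each library mixes every cell type of the organ. The labels number the spleens 1 to 4 and do not give sex, litter or date, so a spread between libraries can hold biological and technical parts alike. With 1 group there is no contrast to test, and all results are levels, ranks and spreads over 4 libraries.

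The spleen filters blood and hosts immune cells. Its white pulp holds B cell follicles and T cell zones kept in place by chemokines from stromal cells. Its red pulp is a mesh of vessels and macrophages that clear old red cells and recycle their iron. In mice the red pulp also makes red cells throughout life, through dividing precursors that load globin and heme and then lose their nucleus. Red cell formation in the mouse spleen is known to vary with the animal's physiological state.

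Total counts per library were 26889712, 27852545, 41263918 and 63612532 for wild-type 1, 2, 3 and 4, and sets of 4 values below follow that order. Of 24062 genes in the table, 19059 had a count in at least 1 library and 13622 had a mean of at least 1 CPM, on the counts-per-million scale after scaling for library composition. Those 13622 genes are the ones described unless another set is named. At the higher levels, 10056 genes reached a mean of 10 CPM, 2394 reached 100 CPM and 81 reached 1000 CPM. A count of 0 allows up to 3 counts, or 0.113, 0.124, 0.0705 and 0.0418 CPM, which covers counting error only. All values written with ± are SD with n = 4.

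Spleen RNA was spread over many genes in each library, but not equally so. It took 1049, 879, 1053 and 1223 genes to hold 50% of the counts, and the 10 most counted genes held 6.12%, 9.43%, 4.88% and 3.85%. Wild-type 2 was the most concentrated and wild-type 4 the least. Of the 100 most counted genes of a library, 67 were shared by all 4 libraries, and 754 of the 1000 most counted.

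The most counted gene was Eef1a1 (chromosome 9, 78478454 to 78481724, minus strand, mm10), the factor that brings loaded tRNA to the ribosome, at 11963, 11052, 12014 and 7932 CPM. On the CPM scale a value is a share of counts, so the order of genes on it also reflects transcript length. Second came adult beta globin, counted under both Hbb-bs and Hbb-b1 with identical counts, at 10399 ± 12020.4 CPM. Cd74, the invariant chain that guards the peptide groove of MHC class II, stood at 5776 ± 1270.2 CPM, and Actb, cytoplasmic actin, at 4421 ± 493 CPM. The ferritin light chain Ftl1, an iron store, stood at 2307 ± 599 CPM. Hspa8, a chaperone of unstressed cells, stood at 3453 ± 1061 CPM. Others among the 20 highest by counts were the MHC class I light chain B2m at 2781 ± 165 CPM, the lysosomal protein precursor Psap at 2444 ± 141 CPM and the actin-binding peptide Tmsb4x at 2372 ± 405 CPM. Among these genes globin had an SD above its mean, while Psap varied only from 2242 to 2562 CPM.

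Per length, in CPM per kilobase of exon (RPKM), Hbb-bs led at 16559 ± 19141 RPKM, with Hba-a2 at 7329.8 ± 8256 RPKM and Hba-a1, which had the same counts as Hba-a2 but is assigned a longer exon length, at 5809 ± 6543 RPKM. Between the alpha globins stood Eef1a1 at 5987 ± 1072 RPKM. Cd74 at 4079 ± 897 RPKM and B2m at 3234 ± 192 RPKM came next, so that the products of both antigen presentation pathways ranked beside globin and translation genes. Small ribosomal protein genes filled much of the rest of the top 20 per length, with Rplp1 at 3132 ± 481 RPKM, Rps27 at 2858 ± 583 RPKM and Rps29 at 2264 ± 556 RPKM. Rps27rt, at 2632 ± 538 RPKM, is placed on the same stretch and strand of chromosome 3 as Rps27. Their counts were nearly equal, 29823 for Rps27rt and 29863 for Rps27 in wild-type 1, so they are not separate measurements.

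Between libraries, the middle gene varied little and a minority varied a great deal. The median SD of log2 CPM was 0.19 (quartiles 0.12 to 0.30), against 0.05 from counting alone, and the median coefficient of variation was 12.9%. Over 14427 genes the common biological coefficient of variation, edgeR's estimate of the spread beyond counting error, was 24.9%. For 10541 genes the SD of log2 CPM was more than 2 times its counting error. The highest library was at least 2-fold above the lowest for 1720 genes, 12.6% of those described, at least 4-fold above for 512 and at least 10-fold above for 166. Without wild-type 4 the share at least 2-fold apart was 8.06%, and without each of the others it was 9.14% to 11.6%.

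**Figure D1:**
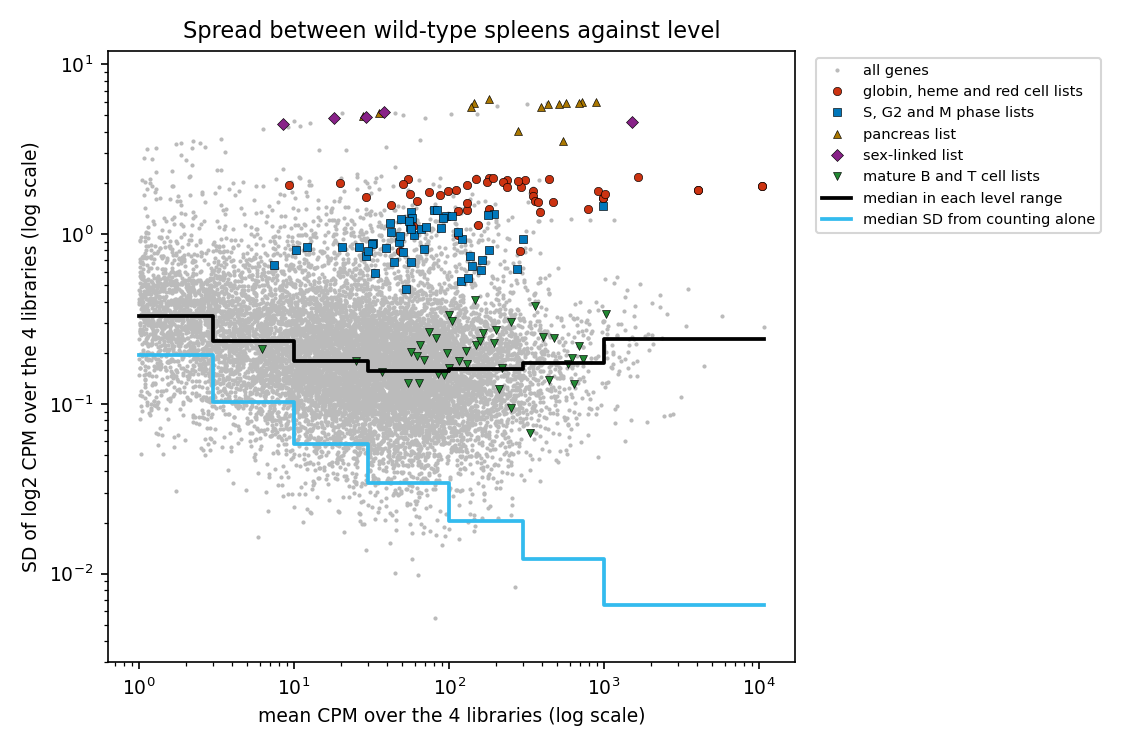
SD of log2 CPM over the 4 libraries (log scale) against mean CPM (log scale) for every gene with a mean of at least 1 CPM (grey) and for members of named lists (colored symbols). The black steps give the median in each range of levels, 0.33 at 1 to 3 CPM, 0.16 at 30 to 100 CPM and 0.24 above 1000 CPM, and the blue steps give the spread from counting alone. Pancreas and sex-linked genes lie highest, red cell genes next, and B and T cell genes lower, with a median of 0.20 for each list.

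The spread did not simply shrink with level. Its median was lowest in genes of 30 to 100 CPM, where 8.15% were at least 2-fold apart, and higher again in the 81 genes above 1000 CPM, where 18.5% were. After scaling for library composition, the least variable gene of at least 10 CPM was Dgcr2, a membrane protein gene. It stood at 81.0, 81.5, 80.9 and 81.3 CPM. Pnn, a splicing-associated protein of nuclear speckles, stood at 264, 267, 265 and 264 CPM, and Lamtor3, a scaffold of lysosomal growth signalling, at 45.5, 44.8, 44.8 and 44.9 CPM. The SD of log2 CPM of Dgcr2, 0.01, lay below its counting error of 0.03, and the gene was chosen as the smallest of 10056. In the 1720 genes that were 2-fold apart, wild-type 2 was highest in 1067 (62.0%), wild-type 4 in 466, wild-type 3 in 112 and wild-type 1 in 75. Over all genes described, each library was highest in 13.2%, 28%, 28.6% and 30.3%. Among the 1720, wild-type 1, 2, 3 and 4 were lowest in 14.5%, 9.48%, 45.2% and 30.8%. The share of all genes lowest in each library is not given here, so counts of lowest libraries stand without it. The order wild-type 2, 1, 4, 3 was seen in 563 of the 1720 (32.7%) and the order 2, 1, 3, 4 in 422 (24.5%).

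Most of the widest groups can be read from their genes, which belong to red cell formation, cell division, the pancreas, fat and sex. Promoters of the most counted member of 5 such lists with an entry in the RefSeq table (GRCm38.p6, the mm10 build) are shown, because the data bear on genes that move together. Each runs from 250 bases before to 50 after the start. In the red cell promoters capitals mark AGATAA, the core bound by GATA factors, and CCACCC, a form of the sites bound by Klf1 and its relatives. Only these exact letters are marked, so other forms of a site, such as the ccacaccc of the Hbb-bs window, stay in small letters. In the dividing cell promoters they mark TTTGAA, the cell cycle homology region known from genes of mitosis, and CCAAT, bound by NF-Y, and in the pancreas promoter TATAAA, the TATA box. Both strands were searched, a match can therefore read as the reverse complement, and none of the 5 motifs contains another.
Hbb-bs, beta globin (chr7:103827879-103828178, minus strand): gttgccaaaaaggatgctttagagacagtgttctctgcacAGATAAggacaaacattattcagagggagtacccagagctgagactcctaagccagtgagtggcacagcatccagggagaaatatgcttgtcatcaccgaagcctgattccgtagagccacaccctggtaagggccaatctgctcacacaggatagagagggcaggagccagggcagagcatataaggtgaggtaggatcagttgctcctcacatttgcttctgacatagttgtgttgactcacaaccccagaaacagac
Alas2, first enzyme of red cell heme synthesis (chrX:150547167-150547466, plus strand): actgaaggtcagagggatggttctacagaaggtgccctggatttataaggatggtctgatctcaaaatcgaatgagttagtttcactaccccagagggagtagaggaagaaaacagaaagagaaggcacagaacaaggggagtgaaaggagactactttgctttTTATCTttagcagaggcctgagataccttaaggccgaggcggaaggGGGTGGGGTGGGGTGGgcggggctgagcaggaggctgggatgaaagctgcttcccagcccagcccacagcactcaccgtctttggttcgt
Mki67, coat protein of mitotic chromosomes (chr7:135716330-135716629, minus strand): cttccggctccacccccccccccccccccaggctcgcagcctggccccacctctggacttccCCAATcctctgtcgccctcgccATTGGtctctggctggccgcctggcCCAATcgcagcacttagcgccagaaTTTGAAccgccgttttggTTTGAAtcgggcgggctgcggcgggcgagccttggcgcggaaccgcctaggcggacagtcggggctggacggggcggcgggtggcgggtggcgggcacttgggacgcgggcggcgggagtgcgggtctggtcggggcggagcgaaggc
Pcna, clamp of the replication fork (chr2:132253131-132253430, minus strand): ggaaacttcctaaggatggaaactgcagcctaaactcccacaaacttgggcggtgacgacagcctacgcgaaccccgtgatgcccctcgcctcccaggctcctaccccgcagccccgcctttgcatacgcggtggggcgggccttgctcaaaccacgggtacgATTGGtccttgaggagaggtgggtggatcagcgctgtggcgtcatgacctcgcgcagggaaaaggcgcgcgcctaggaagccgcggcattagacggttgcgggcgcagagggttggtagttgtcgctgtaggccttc
Pnlip, pancreatic lipase (chr19:58670115-58670414, plus strand): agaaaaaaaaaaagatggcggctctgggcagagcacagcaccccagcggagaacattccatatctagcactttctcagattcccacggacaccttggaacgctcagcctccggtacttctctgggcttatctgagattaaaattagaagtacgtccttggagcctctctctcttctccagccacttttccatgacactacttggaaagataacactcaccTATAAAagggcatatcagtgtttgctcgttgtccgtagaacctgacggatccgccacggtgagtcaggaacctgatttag

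The Hbb-bs window held 1 copy of AGATAA and 0 of CCACCC, and the Alas2 window 1 and 3. Aqp1 and Tfrc, the members chosen by the same rule for the membrane list and the regulator list, are not printed. Their windows held 0 copies of AGATAA, and 2 and 1 of CCACCC. The Mki67 window held 2 copies of TTTGAA and 3 of CCAAT, and the Pcna window 0 and 1. Over lists, TTTGAA was present in 17 of 22 G2 and M phase promoters with an entry (77.3%) and in 3 of 19 S phase promoters (15.8%), against 18.1% of all 27025 promoters. CCAAT was present in 86.4% of the G2 and M phase promoters, in 63.2% of the S phase promoters and in 37.9% of all. AGATAA stood in 11 of 32 promoters of the 4 red cell lists (34.4%, against 11.4% of all) and CCACCC in 16 of 32 (50%, against 30.9%). TATAAA stood in 6 of 12 pancreas promoters (50%, against 14.2%), and AGATAA in 4 of them (33.3%), a share like that of the red cell lists. These are matches of letters in a fixed window, with no measure of binding.

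Red cell genes formed the broadest block of variation among blood genes. Hbb-bs (chromosome 7, 103826523 to 103827928, minus strand) stood at 10421, 27391, 1959.5 and 1825 CPM and the alpha globin Hba-a1 at 4001, 10545, 673 and 1024 CPM. Wild-type 2 was highest, wild-type 1 second, and wild-type 3 and 4 were low for both. Of 10 globin names, the 6 adult ones passed 1 CPM and all 6 were at least 2-fold apart, where the share over all genes is 12.6%. All 6 were highest in wild-type 2, the highest library for 28% of all genes. They form pairs or overlapping names with identical counts (Hbb-bs with Hbb-b1, Hbb-bt with Hbb-b2, Hba-a1 with Hba-a2), so they give 3 separate measurements. Minor beta globin, Hbb-bt, stood at 847, 2431, 161 and 468 CPM and, unlike Hbb-bs, was higher in wild-type 4 than in wild-type 3. The embryonic globins Hbb-y, Hbb-bh1, Hbb-bh2 and Hba-x, used in the yolk sac, had means of 0.0712, 0.0780, 0.0206 and 0.168 CPM. In whole tissue, fewer cells of a type and less RNA per cell cannot be told apart.

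Heme synthesis followed the same order of libraries at its top. Alas2 stood at 899, 2391, 170.4 and 214 CPM and Fech, which inserts the iron, at 345, 875, 81.1 and 83.4 CPM. All 8 enzymes were at least 2-fold apart and highest in wild-type 2, where the shares over all genes are 12.6% and 28%. Ranges ran from 4.39-fold for Ppox to 14.0-fold for Alas2 between the lowest and the highest library. Ratios of wild-type 2 to wild-type 1 were 1.70 to 2.66 for the 8 enzymes and 2.63 to 2.87 for the 6 globin names.

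Genes of the red cell membrane ranged as widely as globin. The anion exchanger Slc4a1 (chromosome 11, 102348820 to 102365281, minus strand) stood at 1797, 4351, 242 and 204 CPM and the water channel Aqp1 at 465, 771, 83.4 and 108 CPM. All 16 members, spectrins, ankyrin and blood group proteins among them, were at least 2-fold apart and highest in wild-type 2. Over all genes those shares are 12.6% and 28%. The range was 9.23-fold for Aqp1 and 21.4-fold for Slc4a1. Wild-type 3 and 4 lay close together, and wild-type 3 was lowest for 9 of the 16. The ratio of wild-type 2 to wild-type 1 had a median of 2.10.

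Regulators and enzymes of red cell precursors covered the span from early to late stages. Gata1, the master factor of the lineage, stood at 84.8, 131, 16.4 and 16.2 CPM, Klf1, which switches on beta globin, at 88.3, 178, 13.8 and 18.0 CPM, and Epor, the erythropoietin receptor, at 51.2, 93.1, 11.6 and 13.2 CPM. Carbonic anhydrase Car2 stood at 1263, 2338, 222 and 233 CPM, the mitochondrial iron carrier Slc25a37 at 793, 1841, 288 and 223 CPM and Trim10, a gene of late precursors, at 194, 518, 29.6 and 24.96 CPM. All 19 members were at least 2-fold apart, and 18 were highest in wild-type 2, where the shares over all genes are 12.6% and 28%. The exception was Car1, a carbonic anhydrase, highest in wild-type 1, the highest library for 13.2% of all genes, at 266, 219, 56.4 and 69.6 CPM. As medians over the list, log2 CPM stood 0.81, 1.90, -1.40 and -1.33 from each gene's own mean.

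**Figure D2:**
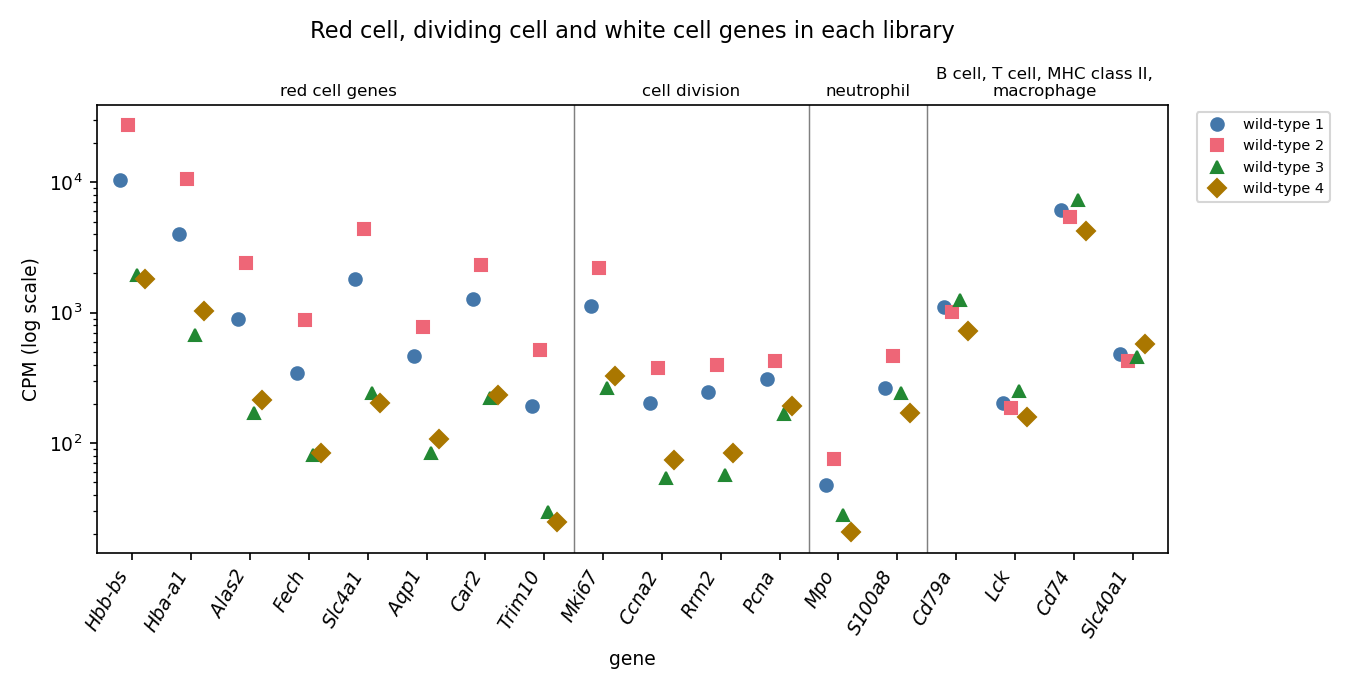
CPM (log scale) of 18 genes in each wild-type library, with 1 symbol per library. Red cell and dividing cell genes are highest in wild-type 2, second in wild-type 1 and low in wild-type 3 and 4, while B cell, T cell, MHC class II and macrophage genes lie within 2-fold.

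Wild-type 1 and 2 were also the libraries with the fewest counts and, as described further on, the ones with pancreatic transcripts. The part of depth and of the pancreas in the red cell values was not tested. Leaving the pancreas list out of the scaling shifts all genes of a library nearly alike, so it cannot show the part of the pancreas. With library sizes and scaling factors taken without the pancreas list, the range of list medians over the libraries was 3.97 for globin and 3.92 for membrane genes on the log2 scale, as with it. Without wild-type 2, it was 2.57 and 2.82.

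Cell division genes shared the order of the red cell genes at smaller sizes. Mki67 (chromosome 7, 135689788 to 135716379, minus strand) stood at 1127, 2204, 262 and 326 CPM, Top2a, which untangles chromosomes, at 341, 547, 125 and 193 CPM and Ccna2, cyclin A, at 202, 378, 53.9 and 74.5 CPM. All 27 G2 and M phase genes were at least 2-fold apart, where the share over all genes is 12.6%. All 27 were highest in wild-type 2, the highest library for 28% of all genes and for 62.0% of those 2-fold apart. Of the 27, 25 were lowest in wild-type 3, the lowest library for 45.2% of genes 2-fold apart. S phase genes varied less. Pcna stood at 312, 423, 166 and 194 CPM, Rrm2, the regulated subunit of the enzyme that makes deoxynucleotides, at 246, 397, 56.5 and 83.2 CPM and the origin loading factor Cdc6 at 80.3, 108, 16.2 and 22.1 CPM. Of 22 S phase genes, 21 were at least 2-fold apart and all 22 were highest in wild-type 2, or 19 of 22 with library size alone as the scale. The exception to the 2-fold range was Cdt1, a partner of Cdc6, with 1.91-fold. The ratio of wild-type 2 to wild-type 1 had a median of 1.67 for G2 and M phase genes and 1.29 for S phase genes.

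Brca1 (chromosome 11, 101488764 to 101551955, minus strand), the repair gene that the study altered in its other group, followed the dividing cell genes in order. It stood at 49.3, 81.0, 16.6 and 21.3 CPM, a 4.86-fold range within wild type alone. Vav1, a signalling gene of blood cells whose regulatory sequence is used to drive recombinases in blood, stood at 187, 179, 225 and 171 CPM, a 1.32-fold range.

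Neutrophil granule genes were also highest in wild-type 2. Among granule proteins made by precursors, Mpo, myeloperoxidase, stood at 47.8, 75.6, 27.9 and 20.6 CPM, the elastase Elane at 12.97, 21.3, 9.52 and 5.85 CPM and Prtn3, a related protease, at 10.3, 18.7, 6.30 and 5.78 CPM. All 6 genes of that list were at least 2-fold apart, highest in wild-type 2 and lowest in wild-type 4. Of all genes, 12.6% were 2-fold apart and wild-type 2 was highest for 28%. Later genes stood higher, with S100a8, a calcium-binding alarm protein, at 265, 465, 243 and 169.6 CPM and the granule protein Ngp at 242, 429, 187 and 88.9 CPM. Of those 14 genes, 11 were at least 2-fold apart and 12 were highest in wild-type 2. Here wild-type 3 lay near wild-type 1, unlike in the red cell lists. Of 11 eosinophil, basophil and mast cell genes 4 were 2-fold apart (36.4%, against 12.6% of all genes). The eosinophil granule genes Prg2 at 72.5, 74.6, 39.5 and 26.1 CPM and Epx at 20.9, 17.8, 8.69 and 4.19 CPM were lowest in wild-type 4, while the eosinophil receptor Ccr3 was lowest in wild-type 3 at 91.5, 76.9, 54.0 and 81.9 CPM.

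Pancreatic digestive enzymes were among the most variable genes. The tail of the pancreas lies beside the spleen in the mouse, and its acinar cells make these enzymes in very large amounts. Pnlip (chromosome 19, 58670365 to 58681788, plus strand) stood at 90.1, 3479, 1.48 and 0.335 CPM. The elastase Cela2a stood at 82.6, 2776, 1.01 and 0.265 CPM, the chymotrypsinogen Ctrb1 at 112, 2651, 1.34 and 0.293 CPM and colipase, Clps, at 31.9, 686, 0.188 and 0.0139 CPM. Wild-type 2 was highest by far, wild-type 1 was intermediate, and wild-type 3 and 4 were low, with 63 and 24 counts for Pnlip and 8 and 1 for Clps. Of the 15 list genes 14 passed 1 CPM, and Amy2a5 had no count. All 14 were at least 2-fold apart, all had the order wild-type 2, 1, 3, 4, and the ratio of wild-type 2 to wild-type 1 was 11.6 to 67.9 with a median of 30.9. Summed over the list they made up 687, 21481, 24.8 and 14.3 CPM. The 20 genes with the largest SD of log2 CPM and a mean of at least 5 CPM were, apart from the Y-linked Ddx3y, digestive enzymes and other secretory genes of this kind, with Rnase1, Zg16 and Sycn among them. In wild-type 2, 53 genes stood at least 4-fold above every other library, 49 of them at least 10-fold, and none stood 4-fold below. Beyond list members these 53 included Reg2, Gp2, Cuzd1, Cckar and Rbpjl, all known from pancreatic acinar cells.

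Fat genes had a different order. Fabp4, a fatty acid carrier, stood at 5.02, 11.5, 10.03 and 28.3 CPM, adipsin, Cfd, at 0.453, 4.98, 1.79 and 26.6 CPM and the hormone Adipoq at 0.113, 2.02, 2.66 and 7.97 CPM, its wild-type 1 value being at the limit of 3 counts. Of 9 fat genes 6 passed 1 CPM, and all 6 were at least 2-fold apart, highest in wild-type 4 and lowest in wild-type 1. Wild-type 4 is the highest library for 30.3% of all genes. The 6.26, 22.4, 22.4 and 78.0 CPM of the summed list make fat a small part of each library. Mesothelial genes, which mark the lining of the capsule, were likewise highest in wild-type 4, all 5 that passed 1 CPM being at least 2-fold apart. The mesothelial factor Wt1 stood at 10.9, 11.9, 16.5 and 24.5 CPM and mesothelin, Msln, at 2.26, 0.782, 1.03 and 4.65 CPM. Of 8 liver genes 1 passed 1 CPM, Cyp2e1, which fat also expresses, at 0.415, 1.85, 2.42 and 5.96 CPM, and albumin, Alb, stood at 0, 0.0412, 0.0470 and 0.0139 CPM. Of 6 skeletal muscle genes 2 did, with Mylpf, a fast muscle light chain, at 5.69, 9.64, 3.45 and 3.22 CPM and Tnnt3 at 1.89, 2.31, 1.90 and 1.98 CPM.

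**Figure D3:**
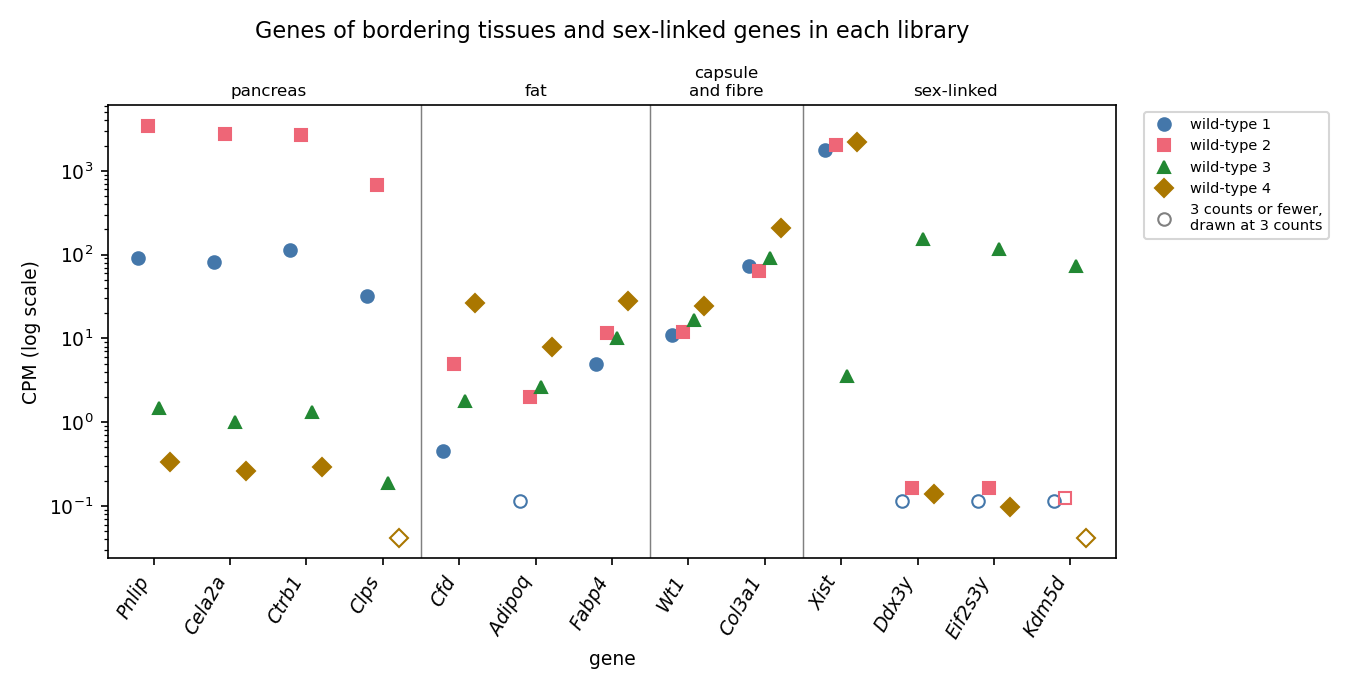
CPM (log scale) of 13 genes of the pancreas, fat, capsule and fibres and of sex-linked genes in each wild-type library, with 1 symbol per library. Open symbols are values of 3 counts or fewer, drawn at 3 counts. Pancreas genes are highest in wild-type 2 and fat genes in wild-type 4, and wild-type 3 alone has high levels of the Y-linked genes shown and low Xist.

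Connective tissue shared part of the order of fat. Col3a1, a fibrillar collagen, stood at 72.8, 63.6, 90.3 and 208 CPM, Col1a2 at 105, 103, 124 and 230.4 CPM and the smooth muscle gene Tagln at 58.6, 65.6, 114 and 93.3 CPM. Of 10 genes 5 were 2-fold apart (50%, against 12.6% of all genes). Of the 10, 6 were highest in wild-type 4 and 4 in wild-type 3, and none was lowest in wild-type 4. Stromal genes of the lymphoid zones leaned the same way. Tlx1, the factor that specifies the spleen in the embryo, stood at 11.6, 15.3, 16.5 and 22.2 CPM, present in every library of this labelled tissue. Cxcl12, which retains cells in niches, stood at 289, 293, 419 and 651 CPM and Cxcl13, which draws B cells into follicles, at 184, 192, 248 and 247 CPM. All 12 genes of that list were highest in wild-type 3 or 4, the highest libraries for 28.6% and 30.3% of all genes. Of the 12, 2 were 2-fold apart (16.7%, against 12.6% of all genes). The part of sampled capsule or fat in these values was not tested.

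Sex-linked genes divided the libraries. Xist (chromosome X, 103460373 to 103483233, minus strand), the RNA that silences 1 X chromosome in females, stood at 1794, 2036, 3.60 and 2240.3 CPM. The Y-linked helicase Ddx3y stood at 0, 0.165, 153 and 0.139 CPM, the translation factor subunit Eif2s3y at 0.0377, 0.165, 116 and 0.0976 CPM, the histone demethylase Kdm5d at 0.0754, 0.0412, 72.3 and 0.0279 CPM and its relative Uty at 0, 0.0824, 33.9 and 0.0279 CPM. Wild-type 3 alone had these 4 Y-linked genes above 1 CPM and alone lacked high Xist, while the labels give no sex. Tsix, which overlaps Xist on the other strand, stood at 0.453, 0.453, 0.0705 and 0.0697 CPM, and whether counting used strand is not given in the sources used here. Differences between wild-type 3 and the other libraries cannot be told apart from a difference of sex. These 4 Y-linked genes were also the only genes at least 4-fold higher in wild-type 3 than in every other library, and Xist and Capn11 the only 2 at least 4-fold lower.

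In the mature B cell, T cell and NK lists no gene was 2-fold apart, where the share over all genes is 12.6%. The median SD of log2 CPM was 0.20, 0.20 and 0.19, against 0.19 for all genes. In the ranges of level that hold the lists' medians of 380, 84.4 and 23.7 CPM, the median over all genes was 0.17, 0.16 and 0.18. Among mature B cell genes, the receptor signalling chain Cd79a stood at 1107, 1007, 1251 and 724 CPM and the inhibitory receptor Cd22 at 709, 632, 823 and 578 CPM. None of 18 was 2-fold apart, 14 were highest in wild-type 3, the highest library for 28.6% of all genes, and 14 were lowest in wild-type 4. With library size alone 14 were lowest in wild-type 2 instead. Fcer2a, the low-affinity IgE receptor, had the largest SD of the list, with a 1.76-fold range. T cell genes behaved alike, with Tcf7, a factor of naive T cells, at 222, 197, 254 and 203 CPM and the kinase Lck at 203, 186, 249.7 and 159 CPM, none of 23 being 2-fold apart and 16 highest in wild-type 3. Il7r, a survival receptor, had the largest SD of the list at 105, 121, 191 and 169.6 CPM. Of 16 NK and cytotoxic genes none was 2-fold apart and 12 were highest in wild-type 3, among them Il2rb at 131, 131, 157 and 122 CPM. The regulatory T cell factor Foxp3 stood at 22.5, 22.7, 32.8 and 15.5 CPM, the only member of its list of 7 at least 2-fold apart.

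All 10 MHC class II genes were highest in wild-type 3, under each of the 5 scalings compared, yet none was 2-fold apart. Cd74 stood at 6144, 5462, 7266 and 4231 CPM, H2-Aa at 2219.8, 1861, 2457 and 1657 CPM and H2-Ab1 at 1489, 1341, 1687 and 1218 CPM. Marginal zone B cell genes varied as little, with the complement receptor Cr2 at 675, 592, 705 and 590.2 CPM. Plasma cell genes varied more, 4 of 10 being 2-fold apart (40%, against 12.6% of all genes). The antibody joining chain, listed as Igj, stood at 1032, 1419, 1466 and 683 CPM, and Derl3, a gene of the secretory pathway, at 13.7, 26.9, 26.5 and 11.9 CPM. Antibody and T cell receptor segments were not analysed here. The recombinase gene Rag1 was low at 1.28, 1.52, 1.15 and 1.39 CPM and Dntt, which adds bases at receptor joints, stood at 3.51, 3.42, 4.39 and 2.41 CPM, while the surrogate light chain genes Vpreb1, Vpreb2 and Igll1 had means below 1 CPM.

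Macrophage genes of the red pulp did not follow the red cell genes. The adhesion molecule Vcam1 stood at 680.4, 725, 915 and 928 CPM, heme oxygenase, Hmox1, at 594, 473, 636 and 397 CPM and the iron exporter Slc40a1 at 483, 429, 456 and 573 CPM. Of 16 members 1 was 2-fold apart (6.25%, against 12.6% of all genes). The list's median deviations of -0.01, -0.01, -0.02 and 0.05 spanned 0.07, or 0.43 with library size alone. The 0.07 was the narrowest range in the plot of list medians. The gene 2-fold apart was Blvrb, a biliverdin reductase also abundant in red cells. It stood at 231, 423, 83.8 and 89.2 CPM, in the order of the red cell genes. Marginal zone macrophage genes were lowest in wild-type 1 for 3 of 4 members, with Marco at 186, 329.7, 249.7 and 225 CPM, Timd4 at 55.1, 78.9, 70.5 and 97.2 CPM and Cd209b at 21.6, 29.2, 18.7 and 48.8 CPM. Monocyte genes stood highest in wild-type 3 for 7 of 12, where the share over all genes is 28.6%. Lysozyme, Lyz2, stood at 977, 1201, 1494 and 1188 CPM and the growth factor receptor Csf1r at 596, 580.3, 607 and 638 CPM. Vcan, a matrix proteoglycan, was the widest of them at 2.79, 2.47, 11.5 and 4.49 CPM. In dendritic cells the lectin receptor Cd209a stood at 15.3, 11.1, 36.2 and 13.4 CPM, 1 library far above the others, where the growth factor receptor Flt3 stood at 43.5, 39.6, 66.7 and 48.5 CPM.

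In the platelet and progenitor lists 5.56% of genes were 2-fold apart, and in the vessel list 14.3%, against 12.6% of all genes. The median SD of log2 CPM was 0.25, 0.21 and 0.20 for platelet, vessel and progenitor genes, against 0.19 for all genes. Of 18 megakaryocyte and platelet genes 1 was 2-fold apart, Gp9, part of the von Willebrand factor receptor, at 9.92, 14.8, 6.79 and 5.66 CPM. Of the 18, 16 were highest in wild-type 2, the highest library for 28% of all genes. The count was 8 with library size alone. Among 14 endothelial genes, Stab2, a scavenger receptor of sinus lining cells, stood at 192, 191, 182 and 209.6 CPM and Plvap, a diaphragm protein, at 142, 139, 148 and 156 CPM. Of the 14, 2 were 2-fold apart (14.3%, against 12.6% of all genes), both at low levels. The lymphatic gene Lyve1 stood at 0.717, 1.03, 1.57 and 2.94 CPM and the sialomucin gene Emcn at 2.04, 3.13, 2.28 and 4.13 CPM. Of 18 stem and progenitor genes 1 was 2-fold apart, Lmo2, which red cell precursors also use, at 196, 285, 123 and 100.3 CPM, and Myb, a factor of progenitors, stood at 61.7, 56.1, 35.7 and 57.3 CPM.

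Genes often used as references differed in how constant they were. Ipo8, a nuclear import gene, stood at 68.0, 65.4, 68.2 and 72.4 CPM and Pgk1, a glycolytic enzyme, at 144, 142, 152 and 159.9 CPM. Tbp, the TATA-binding protein, stood at 38.0, 38.4, 35.8 and 33.9 CPM and Ppia, cyclophilin A, at 725, 681, 707 and 631 CPM. After scaling for library composition each lay within 1.15-fold. With library size alone the median gene shifts by -0.20 in wild-type 2 and 0.17 in wild-type 4 (log2), so this constancy depends on the scale. Gapdh, a glycolytic enzyme, stood at 254, 280.0, 282 and 167 CPM, a 1.69-fold range. The transferrin receptor Tfrc, also on this list and known from red cell precursors, which import iron through it, stood at 432, 844, 108 and 165 CPM, a 7.83-fold range. Wild-type 4 was lowest for 14 of the 20 genes of the list, a count that was 6 with library size alone, under which wild-type 2 was lowest for 13.

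**Figure D4:**
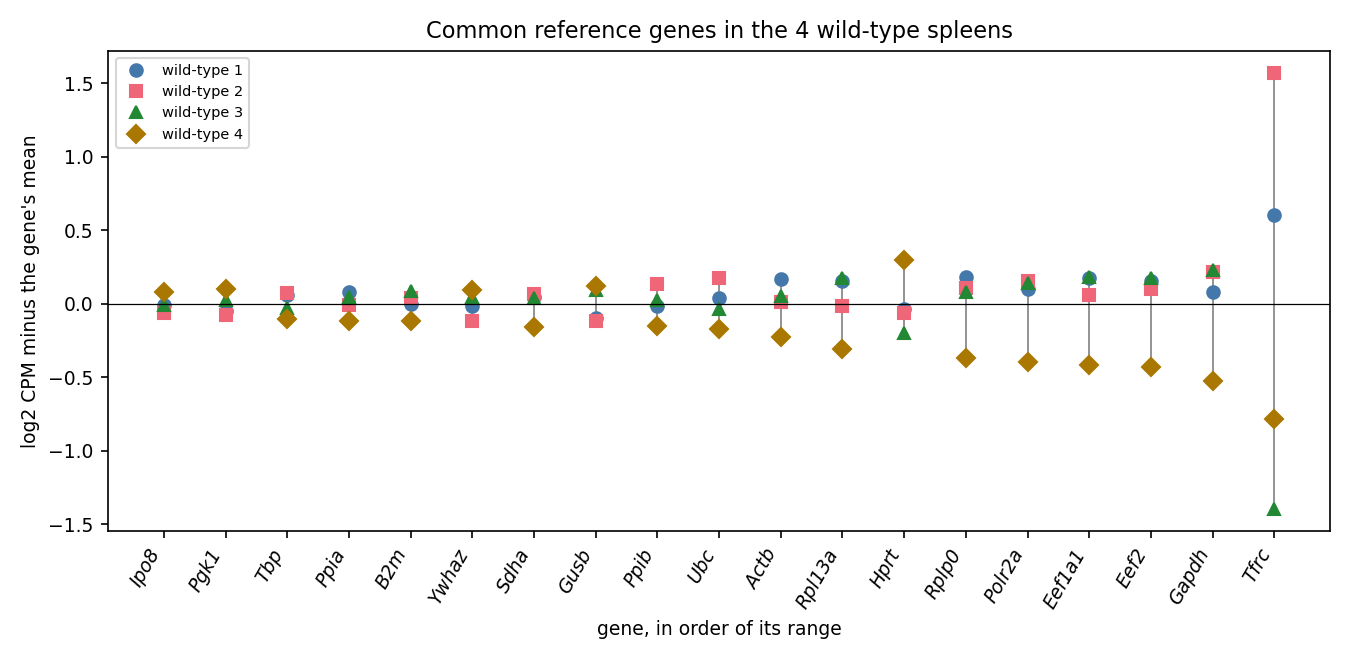
log2 CPM minus each gene's own mean for common reference genes in the 4 wild-type libraries, in order of range. Most lie within 0.5 of their mean, and Tfrc is spread over more than 2 log2 units with wild-type 2 highest.

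Ribosomal protein genes moved as a block within narrow limits. Of 82 that passed 1 CPM, 2 were 2-fold apart (2.44%, against 12.6% of all genes). Of the 82, 55 were highest in wild-type 3, the highest library for 28.6% of all genes. Lowest in wild-type 4 were 66, against 36 lowest in wild-type 4 and 45 in wild-type 2 with library size alone. Rpsa stood at 2801, 2674, 2881 and 1750.3 CPM and Rps24 at 2498, 2445, 2746 and 1547 CPM. Rpl22l1, a paralog of Rpl22, went the other way with its highest value in wild-type 4, at 35.3, 28.3, 31.3 and 65.1 CPM. Heat shock genes had a similar order at larger sizes. Of 10, 6 were 2-fold apart (60%, against 12.6% of all genes) and 8 were highest in wild-type 3. The constitutive chaperone Hspa8 stood at 3571, 3359, 4736 and 2145 CPM and Hsp90aa1 at 837, 717, 767 and 515 CPM, while the stress-induced Hspa1b stood at only 4.75, 2.06, 5.85 and 2.01 CPM.

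Interferon response genes did not move together. Stat2, a signal carrier of the pathway, stood at 167, 157, 164 and 159 CPM. Of 22 genes 6 were 2-fold apart (27.3%, against 12.6% of all genes). Rsad2 (chromosome 12, 26442743 to 26456452, minus strand), an antiviral enzyme also called viperin, stood at 299.7, 892, 65.9 and 81.1 CPM. Isg15, a ubiquitin-like modifier, stood at 69.3, 173, 26.2 and 33.5 CPM and Oas3, a sensor of double-stranded RNA, at 73.7, 135, 36.8 and 44.8 CPM, in orders that share wild-type 2 and 1 at the top with the red cell genes. Mx1 at 27.6, 23.6, 30.9 and 35.8 CPM and Ifit3 at 29.4, 31.9, 32.03 and 40.3 CPM, induced by the same pathway, showed no such range. Ifi44, which was also 2-fold apart, was highest in wild-type 4 at 11.3, 10.8, 7.45 and 17.4 CPM. Of 19 immediate early genes 2 were 2-fold apart (10.5%, against 12.6% of all genes). Ppp1r15a, which restores translation after stress, stood at 173, 412, 52.1 and 40.2 CPM in the red cell order, whereas the feedback regulator Zfp36 stood at 194, 203, 219 and 138 CPM.

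**Figure D5:**
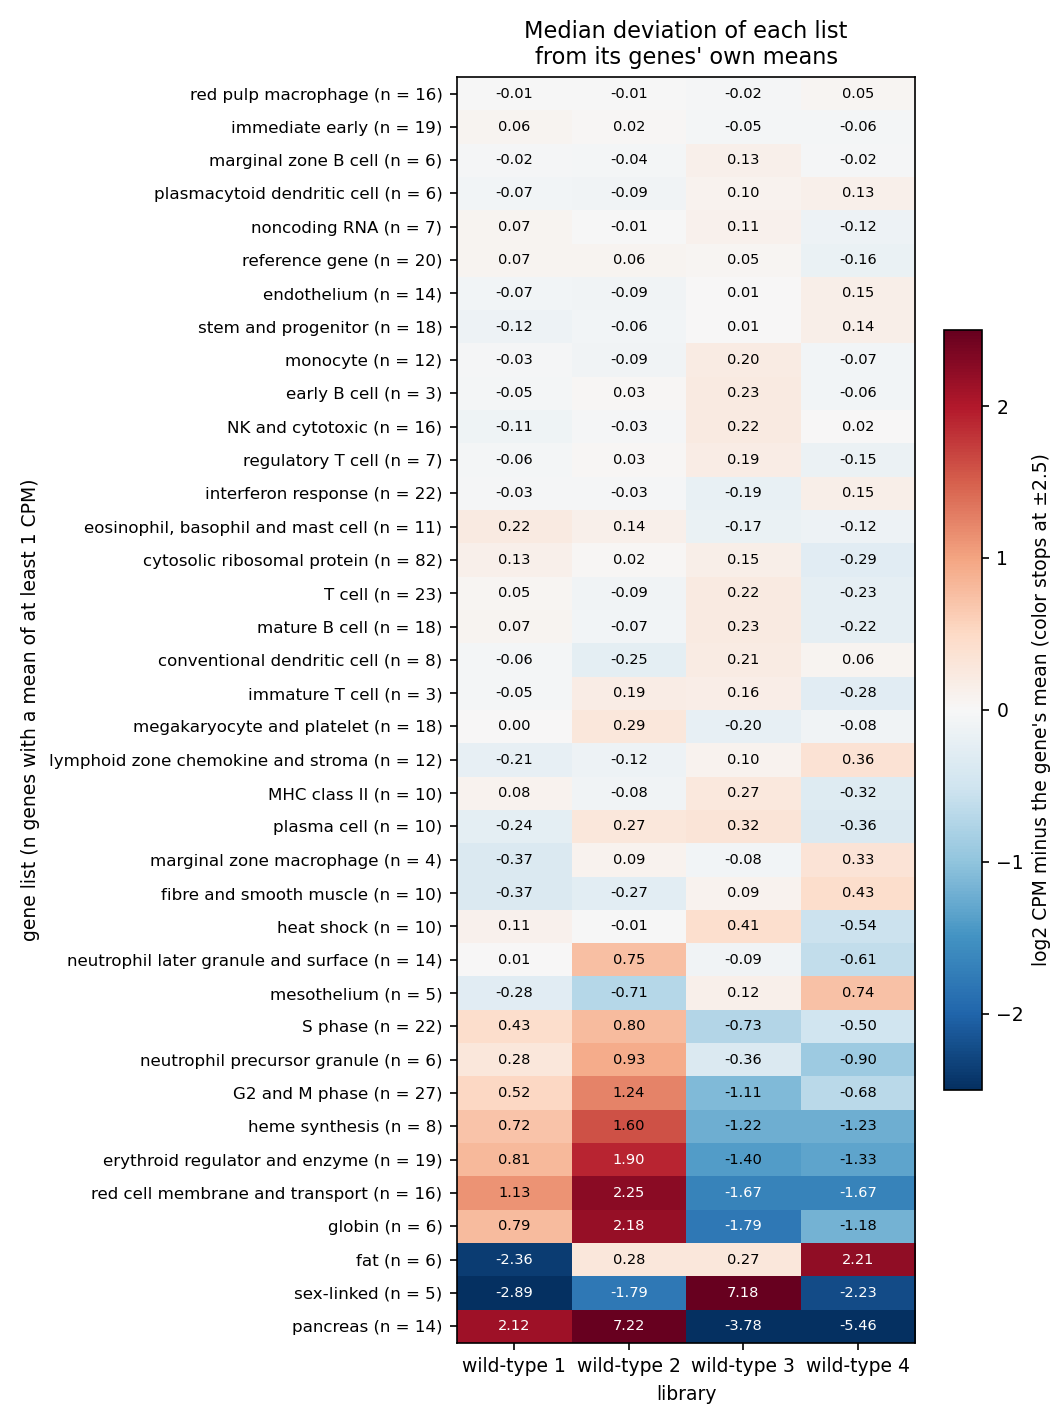
Median over each list's genes of log2 CPM minus the gene's own mean, for the 4 wild-type libraries, with lists in order of their range and the number of genes in brackets. Red is above and blue below the gene's mean. Red pulp macrophage genes lie at -0.02 to 0.05, globin genes at -1.79 to 2.18 and pancreas genes at -5.46 to 7.22.

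Among noncoding RNAs, the nuclear RNAs Malat1 and Neat1 stood at 975, 1133, 1113 and 1369 CPM and 908, 899, 968 and 825 CPM, and the snoRNA host Gas5 at 301, 289, 296 and 265 CPM. Rn45s, the ribosomal RNA precursor, stood at 1624, 1111, 1540.2 and 1189.7 CPM. The imprinted RNAs Meg3 and H19 stood at 2.75, 3.50, 4.77 and 6.996 CPM and 0.717, 0.741, 1.64 and 0.335 CPM. The host gene Snhg1 stood at 57.3, 53.7, 42.0 and 49.9 CPM, and the RNA components Rpph1, Rmrp and Terc had means of 1.07, 0.316 and 0.222 CPM. Of 68 histone genes listed by name as replication-dependent, 6 passed 1 CPM and 10 had no count. Messages of this class mostly, but not always, lack a poly(A) tail. Hist2h2be was the highest at 25.8, 27.4, 25.1 and 16.5 CPM. Of 110 snoRNA genes 23 passed 1 CPM, and of 1121 miRNA hairpin genes 57 did. The highest hairpin name, Mir5107 at 153 ± 26.6 CPM, lies inside Cd74, so its reads cannot be assigned to the hairpin. Of 1122 olfactory receptor genes 5 passed 1 CPM, led by Olfr613 at 11.6 ± 2.54 CPM, and 1056 had no count.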

How the data were processed

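Raw counts per gene of the 4 wild-type libraries were used as the authors deposited them. The build is mm10 and the tools named, per the submitters' processing notes, include TopHat2 2.0.12, Subread 1.4.6 with featureCounts, edgeR and bcl2fastq 2.17.1.14. How RNA was selected, and whether counting used strand, is not given in the sources used here. Another table the authors deposited holds CPM, which equal the counts times 1 constant per library and were tried as an alternative scale. Its columns sum to 849108 to 1017182.

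CPM were computed from the counts with TMM factors over the 4 libraries (0.986, 0.872, 1.03 and 1.13; edgeR 4.0.16, R 4.3.3), and log2 CPM with a prior count of 2. A gene's own mean is the mean of its log2 CPM. RPKM used exon lengths of GENCODE M21 transcripts matched by symbol (18802 of the 19059 genes with a count). Fold ranges are 2 to the power of the log2 range. For 156 sets, 364 genes in all, counts were identical in every library, so reads of copies and of overlapping genes are uncertain. Deposited gene starts counted from 0 were raised by 1. The spread estimates were tested on simulated counts. The 4 libraries were taken by their labels alone, but the decision to describe them, and the genes and lists, were chosen with earlier results of these data known. Named genes were the 20 highest by counts and per length, the 20 with the largest SD (mean of at least 5 CPM, no clone names), the 10 with the smallest (at least 10 CPM), for each list its 3 most counted members and the 1 with the largest SD, all reference, globin, sex-linked and noncoding genes, Brca1 and Vav1. Some genes that this rule names are not reported here. Other genes were chosen as examples after their values were seen. Alternatives covered the scale, the filter, the prior count, the list summary and each library left out in turn. No test was made, because there is 1 group.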

Additional observations from a re-analysis of the deposited data

Results flagged for a closer look

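Of 219 named genes examined, 16 had 1 library so far from the other 3 that its gap to the nearest exceeded 0.829 of the whole range, and so did 4 of 44 lists. Chance alone gives such a gap in about 1 in 20 groups, and genes of 1 list are not independent of each other.

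Several genes had wild-type 4 apart below the other libraries. The elongation factor Eef2 stood at 2457 CPM against 3545 to 3740.2 in the others. The ribosomal protein genes Rpsa (1750.3 CPM against 2674 to 2881), Rpl4 (1614 CPM against 2157 to 2262), Rpl23a (914 CPM against 1436 to 1547) and Rps12 (921 CPM against 1293 to 1339.6) lay in the same direction. So did the ferritin chain Ftl1 (1422 CPM against 2479.6 to 2735), the RNA polymerase subunit Polr2a (321 CPM against 454 to 473) and the respiratory enzyme Sdha (225 CPM against 258 to 263). Above the others in wild-type 4 were the factor Ikzf2 (44.3 CPM against 28.0 to 30.2), the surface protein Bst2 (93.9 CPM against 62.7 to 65.1) and the stem cell and vessel antigen Ly6a (235 CPM against 174 to 179). The median deviation of the reference list in wild-type 4 was -0.16, against 0.05 to 0.07, and that of red pulp macrophage genes 0.052, against -0.02 to -0.01. Wild-type 4 also had the highest total count and the highest scaling factor, 1.13. With library size alone as the scale, the reference list stood at 0.05, -0.13, 0.09 and 0.01 in wild-type 1 to 4, so that wild-type 4 no longer stood apart and its sign turned. Red pulp macrophage genes then stood at -0.03, -0.21, 0.02 and 0.23. The part of depth was not tested.

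In wild-type 3, Xist stood at 3.60 CPM against 1794 to 2240.3. The Y-linked genes stood at 116 CPM for Eif2s3y, 72.3 CPM for Kdm5d and 33.9 CPM for Uty, where no other library passed 0.165 CPM, and the median deviation of the sex-linked list was 7.18. Vpreb3, a gene of the B lineage, stood at 26.7 CPM against 21.3 to 21.8, and marginal zone B cell genes had a median deviation of 0.13 against -0.04 to -0.02.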

How the results depend on the processing

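The number of genes described, the genes holding 50% of the counts, the median spread and the common biological coefficient of variation stayed within 1.5 times their values under every alternative run for them. The share of genes at least 2-fold apart (12.6%) was 19.1% with a minimum mean of 0.1 CPM and 22.0% with no filter, and 8.06% to 11.6% with 1 library left out. Library size alone made wild-type 2 the highest for 11.5% of genes and wild-type 4 for 50.3%, and shifted the median gene by -0.02, -0.20, 0.04 and 0.17 on the log2 scale in wild-type 1 to 4. Ranges of list medians (highest minus lowest library, log2) for the 4 red cell lists, both cell division lists, the neutrophil precursor list and the pancreas list moved by less than the SD over libraries under every alternative. Ranges that moved by more were mostly small ones. With library size alone they were 0.41 for marginal zone B cell, 0.44 for early B cell, 0.49 for NK and cytotoxic, 0.70 for conventional dendritic cell, 0.59 for plasmacytoid dendritic cell, 0.53 for monocyte, 0.43 for red pulp macrophage, 0.25 for megakaryocyte and platelet, 0.57 for stem and progenitor, 0.85 for lymphoid zone chemokine and stroma, 0.61 for endothelium, 0.56 for interferon response, 0.29 for immediate early and 0.36 for noncoding RNA. With the deposited CPM they were 0.26 for marginal zone B cell, 0.17 for red pulp macrophage and 0.35 for endothelium. Scaling without globin gave 0.12 for red pulp macrophage, and no filter gave 0.013 for early B cell. The mean over members gave 0.48 for monocyte, 0.11 for red pulp macrophage, 0.61 for eosinophil and mast cell, 0.36 for endothelium, 0.59 for interferon response, 0.26 for immediate early, 0.47 for reference gene and 0.12 for noncoding RNA. With 1 library left out in turn they were 1.95 to 4.98 for fat, 0.053 to 0.15 for noncoding RNA, 0.24 to 0.46 for conventional dendritic cell, 0.026 to 0.14 for red pulp macrophage, 0.53 to 1.39 for neutrophil later granule and surface, 0.20 to 0.54 for megakaryocyte and platelet, 0.25 to 0.47 for mature B cell, 0.064 to 0.18 for marginal zone B cell, 0.097 to 0.33 for early B cell, 0.20 to 0.39 for T cell, 0.19 to 0.42 for regulatory T cell, 0.16 to 0.32 for NK and cytotoxic, 0.12 to 0.32 for monocyte, 0.18 to 0.41 for interferon response, 0.076 to 0.30 for plasmacytoid dendritic cell, 0.12 to 0.32 for stem and progenitor, 0.39 to 0.89 for fibre and smooth muscle, 0.45 to 0.88 for heat shock, 0.026 to 0.24 for reference gene, 0.80 to 1.30 for mesothelium and 0.13 to 0.44 for cytosolic ribosomal protein. Of 4992 values recomputed for single genes, 414 moved by more than the SD (mean CPM) or 1.5 times (range). Scaling without the pancreas list and counting identical genes once were chosen after seeing the data. Below about 10 CPM, counting error is a larger part of the spread. No paired analysis was possible because there is 1 group.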

Other observations

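Outside the lists described above, wild-type 4 held a few genes far from the other spleens. The clearest by counts was Coch (chromosome 12, 51593341 to 51605773, plus strand), which encodes cochlin, an extracellular matrix protein of the inner ear also known from the spleen, at 211, 227, 214 and 1156 CPM in wild-type 1, 2, 3 and 4. The neurofilament gene Nefh stood at 0.415, 0.247, 0.3995 and 5.48 CPM, the kinase gene Camk2b at 1.24, 1.24, 1.15 and 13.03 CPM and 8430429K09Rik at 0.0754, 0.288, 0.235 and 3.58 CPM. These 3 genes lie in 1 stretch of chromosome 11 between 3452437 and 6065748 (mm10). That stretch was chosen after the values were seen, and most of its other genes did not share the pattern. Of 44 genes there with a mean of at least 1 CPM, these 3 included, wild-type 4 was the highest library for 16. It is the highest for 30.3% of all genes. Of the 44, 9 were at least 2-fold apart, these 3 and 6 others, where the share over all genes is 12.6%.

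Lower in wild-type 4 than in every other library were Erdr1, listed on chromosome Y, at 31.6, 67.8, 55.8 and 0.516 CPM, Gm10653 on chromosome 9 at 36.6, 33.2, 31.2 and 1.44 CPM, and the pseudogene Art2a-ps on chromosome 7 at 21.9, 27.1, 21.5 and 4.56 CPM. Erdr1 was high in wild-type 1 and 2, where Ddx3y stood at 0 and 0.165 CPM, so its level did not follow that of the Y-linked genes. The protease gene Capn11 stood at 4.86, 5.40, 0 and 0.348 CPM, low in wild-type 3 and 4.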
